A study of Mus musculus with 57 samples.

Results

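The 8 genes described here, Ighm, Igkc, Jchain, Mzb1, Xbp1, Sdc1, Prdm1 and Derl3, encode parts of secreted antibody or of the machinery that antibody-secreting plasma cells use to make it. They were taken by symbol from the 47712 genes with an Ensembl ID in the count table, with 1 value per gene and library. RNA was sequenced from 57 bulk libraries of bone marrow from male C57BL/6 mice, 8 weeks old, given for 4 weeks either a control or an anti-PAPP-A antibody (aPAPPA; PAPP-A is a secreted protease that frees insulin-like growth factors from their binding proteins). Whole bone marrow (WBM) was sequenced unsorted from 4 control pools of mice. Control and treated libraries numbered 6 and 4 for mesenchymal stromal cells (MSC), 3 and 4 for haematopoietic stem cells (HSC), and 6 and 6 for Myeloid cells. For common lymphoid progenitors (CLP) they numbered 4 and 4, as for granulocyte-monocyte (GMP) and for megakaryocyte-erythroid progenitors (MEP). A mouse pool gave several populations, control and treated pools had different numbers, and the labels do not give the number of mice in a pool. Batch A held HSC, CLP, GMP, MEP, 3 WBM libraries and 4 MSC libraries (control pools 3, 5 and 7 and treated pool 8). Batch B held 6 Myeloid libraries, and batch C held 6 MSC libraries, 6 Myeloid libraries and 1 WBM library. No genotype, transgene or other agent is named in the labels.

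An antibody is built from heavy chains, such as the mu chain of IgM encoded by Ighm, and light chains, most of them kappa chains in the mouse, encoded by Igkc. Each chain joins a variable region, chosen by rearrangement from many segments in each B cell, to a constant region, so that all cells descended from 1 B cell carry the same segments. The J chain links antibody units into IgM and IgA polymers. Bone marrow is a long-term home of plasma cells, which lie in contact with stromal cells. They depend on the transcription factors Prdm1 (BLIMP-1), which ends the B cell programme, and Xbp1, which enlarges the secretory apparatus. Mzb1 is a chaperone-like protein of the endoplasmic reticulum (ER), Derl3 serves in the removal of misfolded proteins from it, and Sdc1 (syndecan-1, CD138) is a surface proteoglycan used to sort plasma cells. Transcripts of the mu locus that do not encode a full heavy chain are also known in cells without a rearranged gene.

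The stromal marker genes summed to between 36070 and 69740 CPM in the 10 MSC libraries and to no more than 606.6 CPM in any other library. CPM are counts scaled to a common library size after trimmed mean (TMM) normalization. Total counts ran from 321860 to 21812576 in MSC, from 107412 to 9023967 in HSC, from 587316 to 8279964 in CLP and from 5111810 to 125537299 in the other populations. The shallowest were treated HSC pool 6 (107412), control MSC pool 7 (321860), treated MSC pool 8 (499300) and control CLP pool 5 (587316). In control MSC pool 7, 1 count is worth 5.53 CPM, and a gene with 0 counts could stand at up to 16.6 CPM (3 counts). The TMM factor of that library was 0.562, so its values without TMM would be lower. In bulk libraries fewer cells of a type and less RNA per cell cannot be told apart. P-values measure the spread between libraries, which within 1 population is the spread between pools. The edgeR fits over several populations had no pool term, so they treat libraries of the same mice as independent.

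Start-site sequences were at hand for 5 of the 8 genes (RefSeq, GRCm38.p6). The 3 printed here are those of Derl3, Jchain and Xbp1, the first of which held an ER stress response element and all of which peaked in the same MSC library below. Each is the 250 bases before the start site, 5′ to 3′ on the gene's strand, and capitals mark the element.
Derl3 (chr10:75893148-75893397, plus strand): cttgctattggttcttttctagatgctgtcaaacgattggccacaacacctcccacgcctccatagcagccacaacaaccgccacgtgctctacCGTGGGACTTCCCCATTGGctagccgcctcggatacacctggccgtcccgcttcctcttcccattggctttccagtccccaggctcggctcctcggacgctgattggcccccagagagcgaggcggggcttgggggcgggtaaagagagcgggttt
Jchain (chr5:88527898-88528147, minus strand): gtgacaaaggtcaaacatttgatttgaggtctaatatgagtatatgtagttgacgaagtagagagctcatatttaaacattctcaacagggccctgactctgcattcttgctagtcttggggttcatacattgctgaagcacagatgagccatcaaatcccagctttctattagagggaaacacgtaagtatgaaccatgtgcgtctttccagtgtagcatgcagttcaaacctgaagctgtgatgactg
Xbp1 (chr11:5520391-5520640, plus strand): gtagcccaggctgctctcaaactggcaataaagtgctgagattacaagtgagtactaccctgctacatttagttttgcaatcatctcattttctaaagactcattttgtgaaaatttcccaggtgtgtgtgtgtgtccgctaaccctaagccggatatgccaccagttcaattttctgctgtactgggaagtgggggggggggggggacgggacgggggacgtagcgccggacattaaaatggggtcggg
The ER stress response element was searched as CCAAT, any 9 bases and CCACG, on both strands, and lay on the minus strand of the Derl3 window. Of 32851 promoters, 39 (0.119%) held it. TGACGTGG, the unfolded protein response element bound by XBP1, was in 0.676% of promoters and the octamer ATGCAAAT of B cell genes in 1.74%. Neither was found in the 5 windows, which says only that these letters are absent there.

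Ighm (chr12:113418558-113422730, minus strand) and Igkc (chr6:70726435-70726966, plus strand) were abundant in unsorted marrow and in CLP. In WBM, Ighm was 5234, 3148 and 1214 CPM in pools 1, 5 and 7 and 919.6 CPM in pool 15, and Igkc was 4533, 4120, 1117 and 760.5 CPM in the same order. The 8 CLP libraries had 1151 to 7805 CPM of Ighm and 243.3 to 5138 CPM of Igkc, a range that overlapped WBM for both. Early B cell genes summed to 1565 to 2849 CPM over the 8 CLP libraries, and the B cell list to 508.2 to 1175 CPM. The part of B lineage cells in the CLP values was not tested. Among controls the median Ighm level ran CLP 2514, WBM 2181, MSC 551.4, Myeloid 146.3, GMP 89.28, MEP 54.94 and HSC 25.68 CPM, and each of these neighbours overlapped in range with an edgeR adjusted p between 0.0716 and 0.948. The median Igkc level ran WBM 2618, CLP 1469, MSC 712.4, HSC 29.59, Myeloid 21.89, MEP 9.01 and GMP 3.65 CPM, with no overlap between MSC and HSC. Between CLP and MSC the fitted Igkc difference ran against the order of the medians, with MSC higher by 3.48 on the log2 scale (edgeR adjusted p = 0.0348), a value that rests on the MSC library of pool 7 described below. WBM and CLP, HSC and Myeloid, and MEP and GMP did not pass in Igkc (edgeR adjusted p = 0.406, 0.0613 and 0.650). Some pairs that did not pass also had a fitted log2 difference against the order of the medians. In Igkc, HSC minus Myeloid was -4.69. In Ighm, CLP minus WBM was -1.10 and WBM minus MSC was -2.07.

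In GMP the heavy chain gene was present almost without the light chain. GMP libraries had 55.27 to 153.8 CPM of Ighm and 0.435 to 8.53 CPM of Igkc. Ighm made up 96.5% to 99.8% of all heavy chain constant counts there, against 70.6% to 83.8% in WBM. The quotient of the CPM of Ighm and Igkc, which is not corrected for gene length and serves only to compare libraries, was 9.90 to 127 in GMP and 0.764 to 1.21 in WBM. It was 1.18 to 14.7 in Myeloid, 1.35 to 12.1 in MEP, 0.863 to 4.73 in CLP, 0.197 to 3.00 in MSC and 0.195 to 6.00 in HSC. GMP and WBM did not overlap, while the highest Myeloid and MEP values overlapped GMP. At the low end, HSC control pool 5 had 4.91 CPM of Ighm beside 25.25 CPM of Igkc, and its heavy chain counts were 63.3% Ighg2b, an IgG constant gene, and 27.9% Igha, the IgA constant gene.

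**Figure D1:**
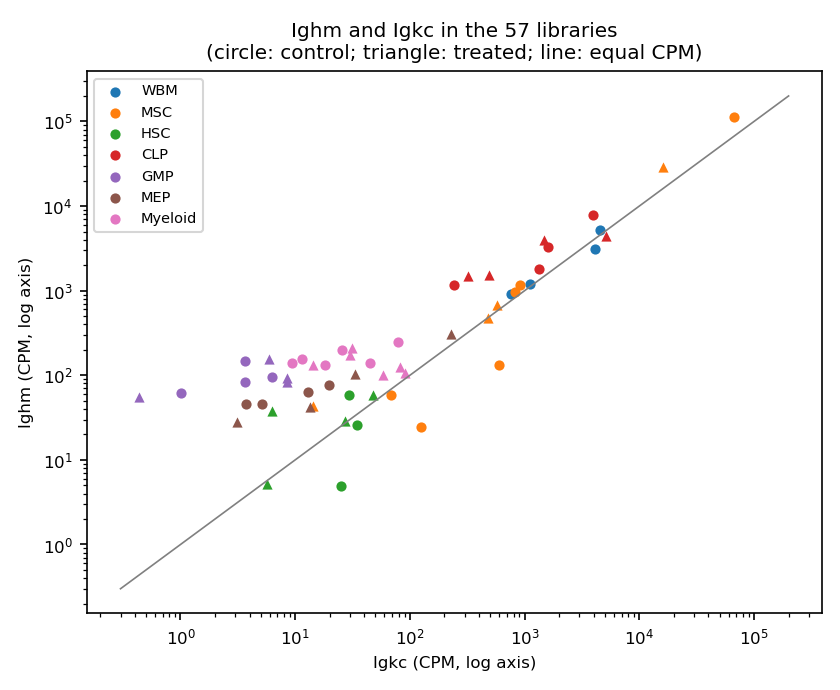
Ighm against Igkc in CPM (both log axes, not corrected for length) in each of the 57 libraries, coloured by population, with circles for control and triangles for treated libraries and a line of equal CPM. GMP libraries lie above the line at 0.435 to 8.53 CPM of Igkc, WBM libraries lie along it, and MSC control pool 7 stands at the upper right with 113100 CPM of Ighm.

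Jchain (chr5:88519809-88527891, minus strand) followed Igkc. It was 712.1, 682.2, 209 and 360 CPM in WBM pools 1, 5, 7 and 15 and 93.24 to 1169 CPM in CLP. GMP libraries had 0.218 to 3.16 CPM, and 7 of the 8 MEP libraries had 0.285 to 7.11 CPM. The eighth, treated MEP pool 2, had 58.58 CPM of Jchain with 229.6 CPM of Igkc and 310.9 CPM of Ighm. Control medians were 521.1 CPM in WBM, 453.1 in CLP, 57.07 in MSC, 9.15 in HSC, 6.85 in Myeloid, 0.983 in MEP and 0.454 in GMP. WBM and CLP (edgeR adjusted p = 0.573), CLP and MSC (0.292), HSC and Myeloid (0.130), and MEP and GMP (0.646) did not pass. Fitted log2 differences ran against the order of the medians for CLP minus MSC (-1.65) and HSC minus Myeloid (-3.905).

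The secretory genes took different orders. Mzb1, like the antibody genes, had its highest control medians in CLP (51.95 CPM, with 10.96 to 74.9 CPM over all 8 libraries) and WBM (33.02 CPM, from 42.21, 41.13, 24.9 and 19.83 CPM), although its highest single value was in MSC control pool 7 (99.48 CPM). It reached no more than 2.95 CPM in any HSC, GMP, MEP or Myeloid library. No neighbours in the order of its control medians passed (edgeR adjusted p between 0.0900 and 0.968). The fitted log2 difference of CLP minus WBM was -0.19, against the order of the medians. Derl3 (chr10:75893413-75895941, plus strand) was 7.64, 6.08, 2.35 and 4.56 CPM in WBM, 0.729 to 6.05 CPM in CLP and 0.85 to 3.59 CPM in GMP. It was a scarce transcript in all libraries but MSC control pool 7 and treated pool 8, with a control MSC median of 0.606 CPM. Xbp1 (chr11:5520659-5525893, plus strand) was expressed in every library. Its levels were 88.2 to 154 CPM in WBM, 181.1 to 236.3 in GMP, 88.97 to 239 in Myeloid, 55.85 to 153.4 in CLP, 56.43 to 98.75 in HSC and 47 to 68.28 in MEP. Every GMP library lay above every WBM library in Xbp1, but the share of all genes that separate in this way was not counted. The fitted difference of the controls, WBM minus GMP, was -0.41 on the log2 scale (SE 0.332) and did not pass (edgeR adjusted p = 0.387). GMP had the lowest control median of Igkc.

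Prdm1 (chr10:44437177-44528501, minus strand) was near the counting floor in most libraries. It was 1.37 to 2.20 CPM in WBM, reached 9.20 CPM in control Myeloid pool 15, and had 0 counts in 3 of 10 MSC libraries, control pools 5 and 7 and treated pool 20. Sdc1 (chr12:8771323-8793715, plus strand) was a stromal transcript in these data. All 10 MSC libraries had 262.7 to 487.8 CPM, against 21.13 to 62.76 CPM in CLP, 4.41 to 11.59 CPM in WBM, 2.77 to 3.97 CPM in MEP, 0.525 to 2.53 CPM in GMP, 0 to 6.70 CPM in HSC and no more than 4.57 CPM in Myeloid. MSC, CLP and WBM did not overlap in Sdc1. Between neighbours in this order the edgeR adjusted p was 1.15e-08 for MSC against CLP and 1.88e-05 for CLP against WBM (16.5% of all genes called between these). In MSC, Sdc1 did not go with antibody transcripts, since the libraries richest in Igkc, control pool 7 and treated pool 8, had 298.5 and 262.7 CPM of Sdc1, at the low end of the 10, as were the other 2 libraries of batch A (264.8 and 315.6 CPM).

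**Figure D2:**
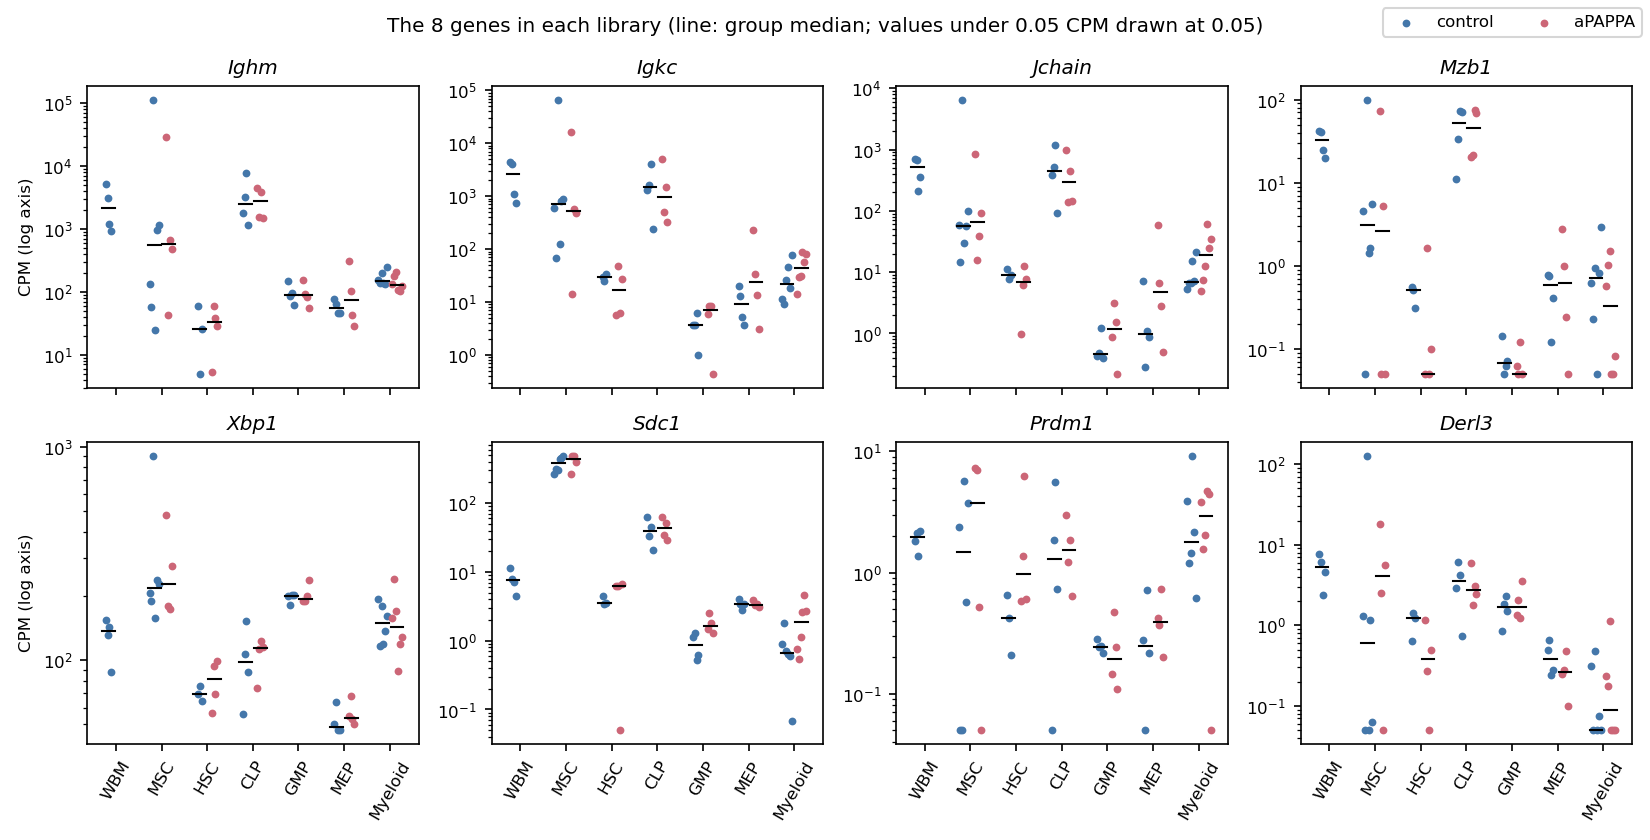
CPM on log axes for each of the 8 genes in each library, by population, with blue points for control and red points for treated libraries, and a line at the group median. Sdc1 separates MSC (262.7 to 487.8 CPM) from all other populations, while Ighm, Igkc and Jchain are high in WBM and CLP and spread widely in MSC.

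The MSC libraries spanned a wider range of antibody transcripts than the libraries of any other population. In control MSC, Ighm was 133.4, 57.77 and 113100 CPM in pools 3, 5 and 7 of batch A and 24.5, 969.3 and 1163 CPM in pools 15, 17 and 19 of batch C. Igkc was 594.8, 67.94, 66700, 124.4, 830 and 902.8 CPM in the same order, and Jchain 57.97, 14.44, 6494, 29.77, 56.17 and 100.2 CPM. Treated MSC pools 8, 16, 18 and 20 had 28610, 43, 675.1 and 472.3 CPM of Ighm, 16040, 14.35, 575 and 479.6 CPM of Igkc, and 841.2, 16.07, 38.8 and 91.42 CPM of Jchain. Control pool 7 and treated pool 8, both of batch A and both shallow, stood far above the other 8. Immunoglobulin genes took 14.5% of all counts in the first and 6.46% in the second, 0.0045% to 0.315% in the other MSC libraries and 0.186% to 1.06% in WBM. The values rest on many counts, 20469 of Ighm in pool 7 and 15681 in pool 8. Without TMM the Ighm level of pool 7 would be 63600 CPM.

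The secretory genes were highest in the same MSC libraries. Control pool 7 had 99.48 CPM (18 counts) of Mzb1, 127.1 CPM (23 counts) of Derl3 and 906.4 CPM of Xbp1. Treated pool 8 had 72.99 CPM (40 counts), 18.25 CPM (10 counts) and 476.2 CPM. The other 8 MSC libraries reached no more than 5.57 CPM of Mzb1 and 5.68 CPM of Derl3, and had 157.9 to 275.1 CPM of Xbp1. Prdm1 was 0 in pool 7, where that allows up to 16.6 CPM, and 7.30 CPM in pool 8. Of the 17 other plasma cell genes, 13 were higher in pool 7, and 9 in pool 8, than in any of the 8 others. So were 10 and 3 of 22 XBP1 and ER secretory genes, and all 5 neutrophil genes in both. The share of all genes that stood above the 8 others was not counted. A scarce gene can do so on few counts, since 1 count is worth 5.53 CPM in pool 7 and 1.825 CPM in pool 8. Irf4, a transcription factor of plasma cells, was 193.4 CPM (35 counts) and 38.32 CPM (21 counts) against at most 5.39 CPM. Tnfrsf17 (BCMA), a survival receptor of plasma cells, was 27.63 CPM (5 counts) and 12.77 CPM (7 counts) against at most 0.313 CPM. These 2 genes were picked after their values were seen.

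Markers of other cells in the same libraries were as follows. Of 15 B cell genes, 5 were above all 8 others in pool 7 and 8 were at 0, among them Pax5, the B cell identity factor. In pool 8, 5 were above and 5 at 0. Of 9 early B cell genes, 6 were at 0 in pool 7 and 5 in pool 8. A 0 allows up to 16.6 CPM in pool 7 and 5.47 CPM in pool 8. All 5 neutrophil genes were above the others in both, with sums of 6350 and 10760 CPM against 921.7 to 2334 CPM. Erythroid genes summed to 1045 and 2315 CPM against 298.5 to 802 CPM. The part of these cells in the MSC values was not tested.

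**Figure D3:**
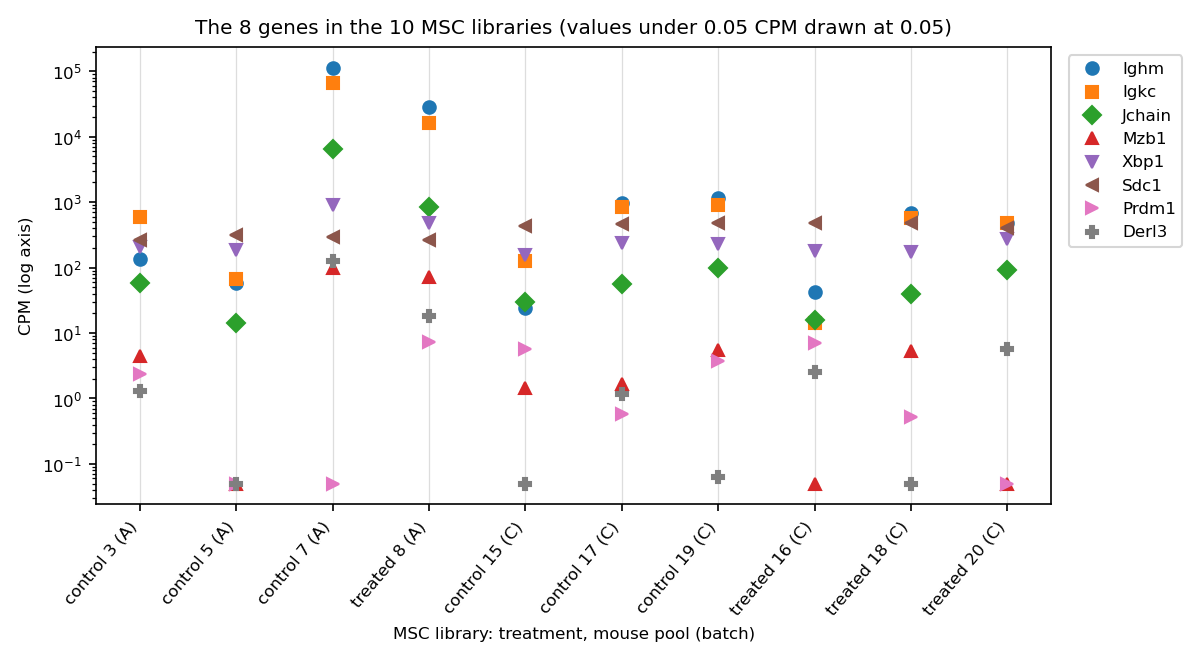
CPM (log axis) of the 8 genes in the 10 MSC libraries, ordered by batch and treatment, with values under 0.05 CPM drawn at 0.05. Control pool 7 and treated pool 8 have the highest Ighm, Igkc, Jchain, Mzb1, Xbp1 and Derl3, while Sdc1 stays between 262.7 and 487.8 CPM in all 10.

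Most other libraries of the same mice were low in Igkc. Pool 7 had the lowest Igkc of batch A WBM (1117 CPM) and the lowest control value in CLP (243.3 CPM), GMP (1.02 CPM) and MEP (3.75 CPM). Pool 8 had the lowest treated value in CLP (319.5 CPM), GMP (0.435 CPM) and MEP (3.09 CPM). HSC was the exception for both, since pool 7 had the highest Igkc of the 3 control libraries (34.62 CPM) and pool 8 (27.29 CPM) lay between treated pools 4 (47.2 CPM) and 6 (6.30 CPM). The MSC library of pool 7 had 59.7 times the Igkc CPM of WBM from the same mice, 93.2 times its Ighm and 31.1 times its Jchain. The MSC library of pool 5 had 0.0165, 0.0184 and 0.0212 times, and that of pool 15 0.164, 0.0266 and 0.0827 times. Only these 3 pools gave both populations.

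Heavy chain classes and variable segments also differed between MSC libraries. In control pool 3, 90.0% of heavy chain constant counts were Ighg1 (1270 CPM) and 9.46% Ighm. In control pool 15, 89.7% were Igha (212.4 CPM) and 10.3% Ighm. The other 8 had 69.7% to 96.3% Ighm. Control pool 7 had 88.7% Ighm, with 8500 CPM of Igha and 3233 CPM of Ighg1, and treated pool 8 had 95.5%. Kappa counts were 94.8% to 99.2% of light chain constant counts in MSC and 86.3% to 95.8% in WBM.

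A few variable segments supplied most of the segment counts in several MSC libraries. The table held 185 Ighv and 160 Igkv segments. In control pool 3, Ighv2-2 took 95.1% of Ighv counts (810) and Igkv19-93 took 89.0% of Igkv counts (1419). In control pool 15, Ighv9-3 took 94.5% (376 counts) and Igkv10-96 took 77.3% (232 counts). In control pool 7, 2 heavy segments, Ighv5-16 with 36.3% and Ighv7-1 with 35.5%, and 2 kappa segments, Igkv1-88 with 44.4% and Igkv15-103 with 29.1%, led. Treated pool 8 was led by Ighv7-1 (69.5%) and Igkv15-103 (53.7%). Ighv7-1 also led control pools 17 (60.4%) and 19 (22.0%) and treated pool 18 (19.2%). Igkv15-103 led pools 17 (46.6%) and 18 (41.0%) and was the second kappa segment of pool 19 (13.6%). Control pool 5 and treated pool 16 had at most 55 Igkv counts and are not compared.

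The inverse Simpson number, the count of equally used segments that would give the same evenness, was compared over libraries with at least 100 counts of the kind. For Igkv it was 1.26 to 12.2 in 8 MSC libraries and 14.3 to 23.5 in 3 WBM libraries, with no overlap, and 5.90 to 22.5 in 8 CLP libraries. Below WBM were also the 2 HSC libraries (2.21 to 2.33) and the 2 GMP libraries (7.69 to 12.6). The 3 MEP libraries had 6.15 to 25.87 and the 4 Myeloid libraries 5.985 to 18.25, so low values were not particular to MSC. For Ighv it was 1.11 to 9.65 in MSC, 5.31 to 24.9 in WBM and 10.4 to 25.0 in CLP. MSC control pool 7 had 6902 Igkv counts and a value of 3.45. No test was made. Salmon divides reads among near-identical segments, so single segment shares are uncertain, and reads over a rearranged joint match a segment only in part.

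**Figure D4:**
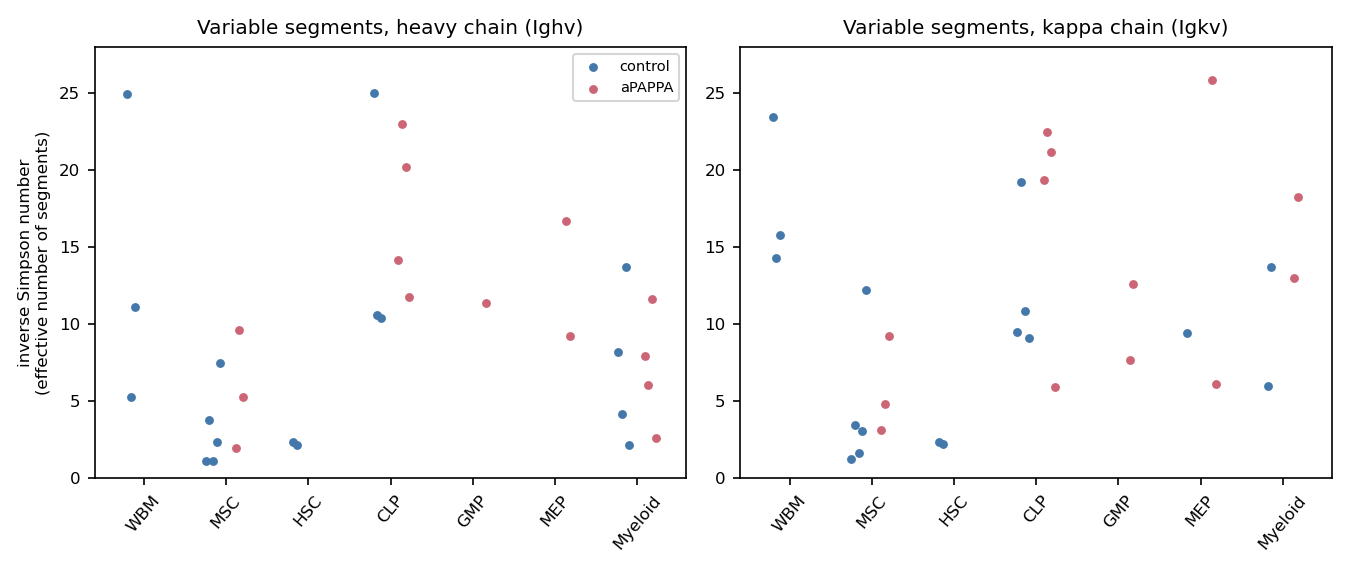
Inverse Simpson number of the heavy (Ighv, left) and kappa (Igkv, right) variable segments in each library with at least 100 counts of that kind, by population, with blue for control and red for treated. For Igkv the 8 MSC libraries lie between 1.26 and 12.2, below the 3 WBM libraries at 14.3 to 23.5, as do the 2 HSC and 2 GMP libraries.

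Control MSC were compared with each other control population in 1 edgeR fit with batch, which asks whether sorted stroma holds plasma cell transcripts beyond those of marrow. Against WBM, 2 of 8 genes were higher and 0 lower. Of the 21384 genes tested 50.7% were called, 25.2% higher and 25.6% lower. On the log2 scale Sdc1 was higher by 5.65 (SE 0.395, edgeR adjusted p = 3.74e-13) and Xbp1 by 1.56 (SE 0.315, adjusted p = 0.000124). The others did not pass, with 2.07 for Ighm (SE 1.40, adjusted p = 0.233), 1.67 for Igkc (SE 1.18, adjusted p = 0.254), 0.23 for Jchain (adjusted p = 0.901) and -1.57 for Mzb1 (adjusted p = 0.145). MSC and WBM share mouse pools 5, 7 and 15. With the mouse pool as a block, in limma voom, 2 genes were higher and 3 lower. Ighm was then -2.78 (adjusted p = 0.0108), Jchain -2.90 (0.000113) and Mzb1 -3.11 (0.000694). In voom with no pool term they were close to this, at -2.71 for Ighm, -2.88 for Jchain and -3.04 for Mzb1.

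The edgeR values of the antibody genes rest on the library of control pool 7. With that MSC library left out, which was chosen after seeing the data, 2 genes were higher and 4 lower (50.6% of all genes called). Ighm was -3.82 (edgeR adjusted p = 0.0199), Jchain -3.36 (0.000758), Mzb1 -3.36 (0.000741) and Derl3 -3.09 (0.00842). Igkc was -2.35 and did not pass (0.068). Sdc1 was 5.58 and Xbp1 0.76 (adjusted p = 0.0103). The fitted means of Ighm, Jchain, Mzb1 and Derl3 were thus lower in the 5 other control MSC libraries than in marrow, while Sdc1 and Xbp1 were higher with and without pool 7. Single libraries did not all follow for Ighm. MSC pools 17 and 19 (969.3 and 1163 CPM) lay above WBM pool 15 (919.6 CPM), the only WBM library of their batch.

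Against CLP, 3 genes were higher (37.6% of all genes called, 21.3% higher), Sdc1 by 3.38, Xbp1 by 2.29 and Igkc by 3.48 (edgeR adjusted p = 0.0348). Without the library of pool 7, Sdc1 and Xbp1 were higher and Ighm (-4.32, adjusted p = 0.0206), Jchain (-3.55, 0.00256) and Mzb1 (-3.83, 0.00142) lower (37.0% of all genes called), and Igkc was -1.80 (0.230). With the pool as a block in voom, 2 were also higher and 3 lower, with Ighm at -2.76 (adjusted p = 0.0466) and Igkc at -0.54 (0.758).

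Against the other 4 populations, the counts of genes higher in MSC were 6 against HSC (33.2% of all genes called, 17.8% higher), 7 against GMP (43.0% and 23.3%), 7 against MEP (43.9% and 23.8%) and 3 against Myeloid (51.9% and 30.6%), with 0 lower. Without pool 7 they were 4 (32.8%), 4 (42.2%), 5 (42.8%) and 4 (52.5%). With the pool as a block in voom they were 3, 4, 5 and 3. The count against Myeloid is near the share over all genes. Without pool 7 the shares are of genes called in either direction, and 0 of the 8 genes were lower. The counts against HSC and GMP are near those shares, but the share of all genes that were higher was not counted there. Sdc1 and Igkc were higher against all 4 with and without pool 7 and with the block. Against Myeloid, Igkc no longer passed with pool 15, 17 or 19 left out (edgeR adjusted p = 0.0704, 0.089 and 0.0512). Against GMP without that library, Igkc was 7.13 (edgeR adjusted p = 1.57e-05), Jchain 6.05 (1.3e-05), Mzb1 5.55 (0.000249) and Sdc1 8.83 higher. Ighm (0.86, adjusted p = 0.597) and Xbp1 (0.20, 0.589) no longer passed, and Derl3 went from 3.602 (0.0415) to -1.29 (0.367). Against Myeloid the level rests on batch C, since batch B held no other population. With no batch term 7 of 8 genes were called there.

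**Figure D5:**
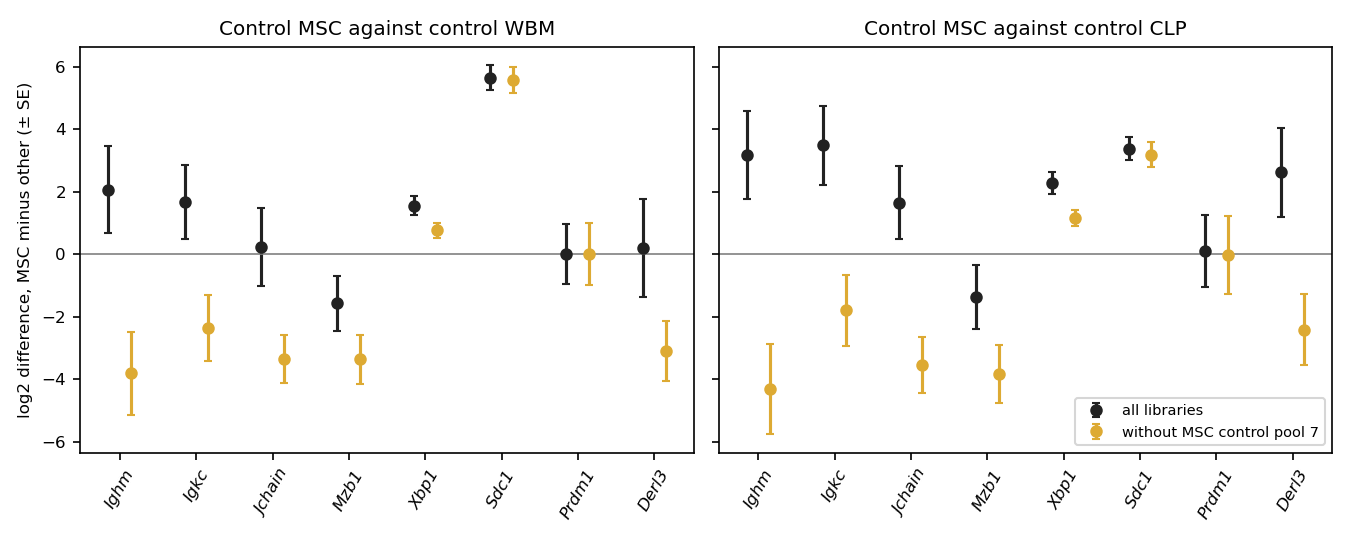
Fitted log2 difference ± SE of control MSC minus control WBM (left) and control CLP (right) for the 8 genes, with all libraries (black) and without the MSC library of control pool 7 (yellow). Ighm moves from 2.07 to -3.82 against WBM, while Sdc1 is 5.65 and 5.58.

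Other genes of antibody secretion were counted only in the edgeR fit with all libraries, so these counts are not known without pool 7. The MSC library of pool 7 stood above the 8 MSC libraries other than pools 7 and 8 in many of them. These were 10 of 22 XBP1 and ER secretory genes, 13 of 17 other plasma cell genes and 9 of 13 immunoglobulin constant genes. All 5 neutrophil genes also stood above, and the share of all genes that did so was not counted. Against WBM, 14 of 22 XBP1 and ER secretory genes were higher and 2 lower in control MSC (median log2 0.91, against -0.09 over all genes tested, of which 25.2% were higher and 25.6% lower). Sec24d, a coat protein of ER export, was higher by 3.22 (edgeR adjusted p = 4.11e-10) and Hspa5, the main ER chaperone, by 2.07 (1.76e-09). Of 17 other plasma cell genes 4 were higher and 6 lower, near those shares. Tnfrsf13b (TACI), a receptor for B cell survival factors, was lower by 4.48 (log2 -4.48, adjusted p = 7.3e-06), and Txndc5, an ER disulphide isomerase, higher by 3.06 (7.33e-07). Of 15 B cell genes 13 were lower and 1 higher. Pax5 was -5.79 (adjusted p = 1.22e-08), and the 1 higher was Ebf1 at 1.97 (0.000346), a B lineage factor with 312 to 1243 CPM in every MSC library. All 9 early B cell genes were lower. Of 11 immunoglobulin constant genes tested, Ighd (-3.64, adjusted p = 0.00672) and Iglc3 (-3.75, 0.0114) were lower and 0 higher.

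None of the 8 genes was called between treated and control libraries in any population by edgeR (0 called of 8 tested in MSC, of 7 each in CLP and Myeloid, of 6 each in HSC and GMP and of 5 in MEP). Called genes made up 0.0313% of all genes tested in MSC, 0.00690% in HSC and 0% in the other 4. DESeq2 also called 0. At an unadjusted p under 0.05 edgeR had 1 of the genes in GMP, 2 in Myeloid and 0 in the other 4 populations. In MSC the difference, treated minus control, was -0.70 for Ighm (SE 1.98), -0.69 for Igkc (SE 1.75), -0.67 for Jchain (SE 1.58) and -0.11 for Sdc1 (SE 0.161), each with an edgeR adjusted p of 0.999. Pools 7 and 8, 1 library on each side, stood far above their groups. Leaving out single pools moved Ighm between -1.03 and 1.41. In GMP, Sdc1 was 1.07 (SE 0.412, unadjusted p = 0.0271, edgeR adjusted p = 1), with 0.525 to 1.29 CPM in control and 1.31 to 2.53 CPM in treated libraries. In MEP, Igkc was 2.78 (SE 1.25, edgeR adjusted p = 0.9995), and treated pool 2 with 229.6 CPM stood apart from 3.09 to 33.41 CPM in the other treated libraries. Markers of other cells were also higher in that library, with a neutrophil sum of 5557 CPM against 201.8 to 753.2 CPM in the other 7 MEP libraries and an erythroid sum of 396.5 CPM against 104.1 to 255 CPM. Its B cell sum was 62.95 CPM, within the 20.71 to 86.45 CPM of the others, and its early B cell sum 33.36 CPM, within 19.06 to 88.56 CPM. The median treatment difference in MEP was 1.95 over the neutrophil genes, 0.85 over early B cell and 0.64 over B cell genes tested, against 0.01 over all genes. The part of these cells in the Igkc value was not tested.

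In Myeloid cells Jchain was 15.05, 7.06 and 21.32 CPM in control pools 15, 17 and 19 and 62.04, 25.19 and 34.37 CPM in treated pools 16, 18 and 20 of batch C, with no overlap. In batch B it was 5.36, 6.65 and 6.54 CPM in control and 4.95, 7.39 and 12.8 CPM in treated libraries, with overlap. The fitted difference over both batches was 0.99 (SE 0.361, unadjusted p = 0.0151, edgeR adjusted p = 0.995), 0.50 in batch B alone (adjusted p = 1) and 1.51 in batch C alone (0.453). Igkc was 0.74 (SE 0.338, unadjusted p = 0.0449, edgeR adjusted p = 0.995), with 0.77 and 0.72 in the batches. Sdc1 in batch C was 0.642, 0.594 and 0.0686 CPM in control and 2.58, 4.57 and 2.69 CPM in treated libraries. In batch B its difference was -0.43, against 2.93 in batch C, and 1.19 over both (adjusted p = 0.995). The 5 stromal markers moved the same way, with a sum of 25.41 to 105.6 CPM in control and 127.9 to 191.6 CPM in treated libraries of batch C, and 14.25 to 23.47 and 12.81 to 24.42 CPM in batch B. Their median difference over both was 0.88, against -0.03 over all genes, and their part in the Sdc1 values was not tested. Ighm in batch C was lower in every treated library (106.2, 101.3 and 123.6 CPM) than in every control library (137.8, 133.6 and 247.8 CPM). Its difference was -0.62 there (adjusted p = 0.531), 0.13 in batch B and -0.25 over both. Xbp1 was 0.27 in batch B and -0.28 in batch C, and Prdm1 0.25 and -0.37. The direction of Ighm, Sdc1, Xbp1 and Prdm1 therefore differed between batches, and no value passed in either. Groups of 3 libraries can separate by chance, and the share of all genes that separated in batch C as Jchain, Sdc1 and Ighm did was not counted.

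The treatment response of the 8 genes was also compared between populations in 1 edgeR fit. The number called was 0 of 8, with 0 at an unadjusted p under 0.05, where 0.0511% of 21525 genes were called. The smallest unadjusted p was 0.198, for Sdc1.

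Batches C and A of MSC were compared because pools 7 and 8 both belong to batch A. None of the 8 genes was called by edgeR (0 of 8), where 4.54% of 15984 genes were. DESeq2 gave an adjusted p for 5 of the 8 and called 2. At an unadjusted p under 0.05 edgeR had 5, which were Ighm, Igkc, Jchain, Xbp1 and Sdc1. Batch C minus batch A was -1.325 for Xbp1 and 0.43 for Sdc1, which was thus higher in batch C. It was -6.14 for Ighm, -5.55 for Igkc, -5.08 for Jchain and -4.25 for Mzb1, the last at an unadjusted edgeR p of 0.0541. Without the libraries of pools 7 and 8 the differences of Ighm, Igkc, Jchain and Mzb1 were 2.61, 0.62, 0.48 and 0.06. The lower values of these genes in batch C thus rest on those libraries.

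Across the 57 libraries the genes with the most similar profile differed by role. The measure was Pearson's r of log2(CPM + 1), which mixes populations, batches and depth and is given as a description. Igkc went with Jchain (0.968), Iglc2 (0.919), a lambda constant gene, and Igha (0.881). Mzb1 went with Pou2af1 (0.940), a B cell coactivator, Cd79a (0.922), part of the B cell receptor, and Ighd (0.919). Derl3 went with Tnfrsf17 (0.828). Xbp1 went with Lbp (0.863), App (0.831) and the ER degradation gene Sel1l (0.817). Sdc1 went with Tnfsf11 (RANKL, 0.956), Mmp11 (0.955), a matrix protease, and Tmtc1 (0.950). Its r was 0.659 with Igkc and 0.591 with Jchain. Prdm1 reached no more than 0.619 with any gene. Within MSC, after subtracting batch means, Ighm was most like Ighv7-1 (0.987) and Igkv15-103 (0.981), over 10 libraries of which pools 7 and 8 hold the extremes.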

How the data were processed

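RNA was made into libraries with a NEBNext directional kit that keeps strand, per the labels' protocols. The authors did quality control with FastQC 0.11.5 and quantified with Salmon on the build mm10, per the submitters' processing notes. For Salmon no version or annotation release is given in the sources used here. The values the authors deposited are expected counts (Salmon estimates), already whole numbers. Repeated lines were identical, and 1 line per gene and library was kept. Levels are CPM on 1 TMM scaling over 57 libraries. Differences were fitted with edgeR 4.0.16 in R 4.3.3 (filterByExpr, TMM, robust quasi-likelihood, Benjamini-Hochberg at 0.05), with batch as a term where groups spanned batches. Genes named are the 8 and, from lists of related genes, those with the smallest p or highest level. The genes and lists were chosen with earlier results of these data known. Alternatives were size factors by relative log expression, no low-count filter, DESeq2 1.42.0, limma 3.58.1 voom, other library sizes, batches alone, shallow libraries left out and single pools left out. The fits were tested on simulated data. Positions are from GENCODE for GRCm38. The pool number marks the same mice in several populations, per the labels, and voom gave a correlation within pools of 0.0674 over the control libraries.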

Additional observations from a re-analysis of the deposited data

Results flagged for a closer look

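The rule used here is the gap between an extreme library and its nearest neighbour over the range of a group of 4 to 10. For normally distributed values it flags about 1 in 20 groups, but CPM are skewed and the libraries differ in depth. It was applied to 96 groups of the 8 genes, which share libraries, and flagged 20. The number that chance would flag here is not known. Control MSC pool 7 was the high library for Ighm (113100 CPM), Igkc (66700), Jchain (6494), Mzb1 (99.48), Xbp1 (906.4) and Derl3 (127.1). Treated MSC pool 8 was the high library for Ighm (28610 CPM), Igkc (16040), Jchain (841.2) and Mzb1 (72.99).

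Treated MEP pool 2 was high in Igkc (229.6 CPM) and Jchain (58.58 CPM), and its Igkv segments were even, with an inverse Simpson number of 25.87. Control MEP pool 1 was high in Jchain (7.11 CPM), as was control GMP pool 5 (1.24 CPM). Mzb1 was high in treated HSC pool 4 (1.64 CPM) and control Myeloid pool 19 (2.95 CPM), and Derl3 in treated Myeloid pool 14 (1.12 CPM). Xbp1 was low in control GMP pool 3 (181.1 CPM, against 198.8 CPM for its neighbour). Treated HSC pool 6, the library with 107412 counts, was low in Sdc1 (0 CPM, which allows up to 18.9 CPM) and high in Prdm1 (6.30 CPM, 1 count).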

How the results depend on the processing

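Against WBM, the number of the 8 genes called in control MSC was 2. It was 6 without libraries under 1000000 counts and 5 with voom, both with the mouse pool as a replicate block and with no pool term, and 2 to 7 with single pools left out. For HSC it was 6, 3 with the block, 3 with voom with no pool term and 3 to 7 with single pools left out. For CLP it was 3, 5 without shallow libraries, 5 with the block and 2 to 5. For GMP it was 7, 4 with either voom fit and 4 to 8. For MEP it was 7 and 4 to 7, and for Myeloid 3, 7 with no batch term and 1 to 4. For MSC batch C against A, DESeq2 gave 2 against 0. Against CLP, Ighm had an adjusted p of 0.0466 with the block and 0.0573 with voom and no pool term.

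Against WBM, values without shallow libraries, with the replicate block and with voom with no pool term were -3.67, -2.78 and -2.71 for Ighm, -2.26, -1.72 and -1.68 for Igkc, -3.30, -2.90 and -2.88 for Jchain and -3.08, -1.74 and -1.69 for Derl3. With no low-count filter Jchain was -0.13 and Derl3 -0.09. Leaving out single pools gave -3.90 to 3.58 for Ighm, -2.48 to 2.80 for Igkc, -3.48 to 2.02 for Jchain and -3.26 to 2.73 for Derl3. Against CLP, in the same order of fits, values were -3.39, -2.76 and -2.71 for Ighm, -0.93, -0.54 and -0.54 for Igkc and -2.75, -2.53 and -2.52 for Jchain, and single pools left out gave -4.32 to 3.93, -1.85 to 4.19 and -3.57 to 2.33. The fit with the replicate block differs from the edgeR fit in method (voom) as well as in the pool term. It also turned Prdm1 against WBM (0.01 to -0.14) and Derl3 against CLP (2.62 to -1.05) and GMP (3.602 to -0.15). It turned no other direction of the 8 genes against the 6 populations. Both voom fits lay close together in the values above, so these turns cannot be credited to the pool term. For MSC batch C against A, the fit without shallow libraries gave 2.61 for Ighm, 0.62 for Igkc, 0.48 for Jchain and 0.06 for Mzb1. For treatment in MSC, single pools left out gave -1.03 to 1.41 for Ighm, -0.98 to 1.15 for Igkc and -1.27 to 1.18 for Jchain. In Myeloid batch B alone, Ighm was 0.13 and Sdc1 -0.43. The cause of these changes was not tested. No paired analysis was possible for treatment because control and treated pools have different numbers.

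Calls over all genes for treatment were 5 in MSC (1 to 649 over other fits, 0 to 4 with single pools left out), 1 in HSC (0 to 181, and 1 to 149), 0 in MEP (0 to 12, and 0 to 1) and 0 in Myeloid (0 to 112). The response comparison had 11 (7 to 146), the MSC batches 725 (244 to 1381, and 411 to 827), and MSC against HSC 7103 (4643 to 8084 with single pools left out). Of 208 group levels under other scalings, 195 moved by less than 1 SD, and the 13 that moved more used library totals. DESeq2 gave no adjusted p for some of the genes, which were not counted as lost.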

Other observations

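Among stem cell libraries the variable segments were also uneven. HSC control pools 3 and 5 each had over 100 counts of both kinds, with inverse Simpson numbers of 2.32 and 2.13 for Ighv and 2.33 and 2.21 for Igkv. Pool 5 differed in class, with 63.3% Ighg2b among its heavy chain constant counts against 96.6% Ighm in pool 3. Immunoglobulin genes took 0.0137% and 0.0157% of counts in these libraries.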
